A study of Mus musculus with 10 samples.

Results

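The genes described here encode 10 integrin chains of leukocytes, out of 27179 genes in the count table: the alpha chain genes Itgam, Itgax, Itgae, Itgal, Itgav, Itga4 and Itga6, and the beta chain genes Itgb2, Itgb5 and Itgb7. They were chosen by name, with earlier results of these data known, and all 10 had enough reads to be tested. An integrin is a receptor made of 1 alpha and 1 beta chain that span the membrane and bind matrix proteins or receptors on other cells. On leukocytes, the beta2 chain pairs with the alpha chains of Itgal (LFA-1), Itgam (CD11b, Mac-1) and Itgax (CD11c), the beta7 chain pairs with those of Itga4 and Itgae (CD103), and the alpha V chain of Itgav pairs with several beta chains, beta5 among them. Surface CD11b, CD11c and CD103 are also used to sort macrophages and dendritic cells, and ductal macrophages are known as CD11c-bearing cells that lie along the epithelium of the mammary ducts.

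RNA-seq was run on freshly sorted mammary gland cells of C57BL/6 females, which were adult and virgin. The 5 populations comprised 2 of macrophages, ductal and stromal, and 3 of dendritic cells (DC). The dendritic cells were CD11b-CD103+ (called CD103+ DC from here on), CD11b-CD103- (CD103- DC) and CD11b+ (CD11b+ DC). Each population had 2 biological replicates, which gives 10 libraries. Pooling of mice is not mentioned in the labels, and the gates are named only through the population names. No treatment or engineered allele is stated for any group.

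Levels are given in CPM, a gene's reads per library scaled by the library's total in the tested genes and its TMM factor, for replicate 1 and then replicate 2. Library totals ranged from 5636092 to 23093742 counts, so that 3 counts correspond to 0.119 to 0.683 CPM. Mitochondrial genes took 23.1% to 24.8% of counts in stromal macrophages and 0.631% to 6.29% elsewhere. Markers were checked against the labels. Csf1r, the receptor gene for the macrophage growth factor CSF1, reached 4317 CPM in ductal macrophages and 614 CPM in stromal ones but also 566 CPM in CD11b+ DC. Flt3, a receptor gene of the dendritic cell lineage, reached 520.2 CPM in CD103+ DC and 416 CPM in CD103- DC but only 18.1 CPM in CD11b+ DC. Monocyte markers (6 genes, summed) stood at 3045 to 3742 CPM in CD11b+ DC against at most 809.8 CPM in any other library, but Ccr2 (1014 to 1407 CPM) and Fn1 (2008 to 2305 CPM) carried that sum. The monocyte genes Ly6c2 (1.97 to 2.41 CPM) and Plac8 (11.6 to 12.2 CPM) were low in the same libraries. Markers of CD11b-bearing conventional dendritic cells (5 genes, summed) were at 1619 to 2078 CPM in CD11b+ DC, but also at 1268 to 1740 CPM in stromal and 690.2 to 933 CPM in ductal macrophages, against 26.4 to 89.8 CPM in the CD11b- dendritic cells. Zbtb46, a transcription factor gene of conventional dendritic cells, was at 8.98 to 19.3 CPM in CD11b+ DC, 55.9 to 75.8 CPM in the CD11b- dendritic cells and 1.59 to 7.62 CPM in the macrophages. CD11b+ DC are therefore called here by their label alone, since their markers were mixed.

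All 7 chains that do not mark a sort differed among the 5 populations (F test of edgeR's quasi-likelihood model, Benjamini-Hochberg adjusted), as did 50.4% of all genes tested. The sizes of the differences varied among these chains. The population means of Itgb7 spanned 8.26 on the log2 scale, those of Itgb5 spanned 6.85 and those of Itgal 5.85. Itgav spanned 3.57, Itga4 spanned 3.18, Itgb2 spanned 2.91 and Itga6 spanned 2.02. Over all tested genes the median span was 1.73, and the 90th percentile was 3.998. Of the 7 chains, only Itgb7, Itgb5 and Itgal lay above that percentile. Itgam, Itgax and Itgae encode the sorting markers, and the gates can set their levels. Their values are therefore given as a description and a check of the labels, with no test.

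**Figure D1:**
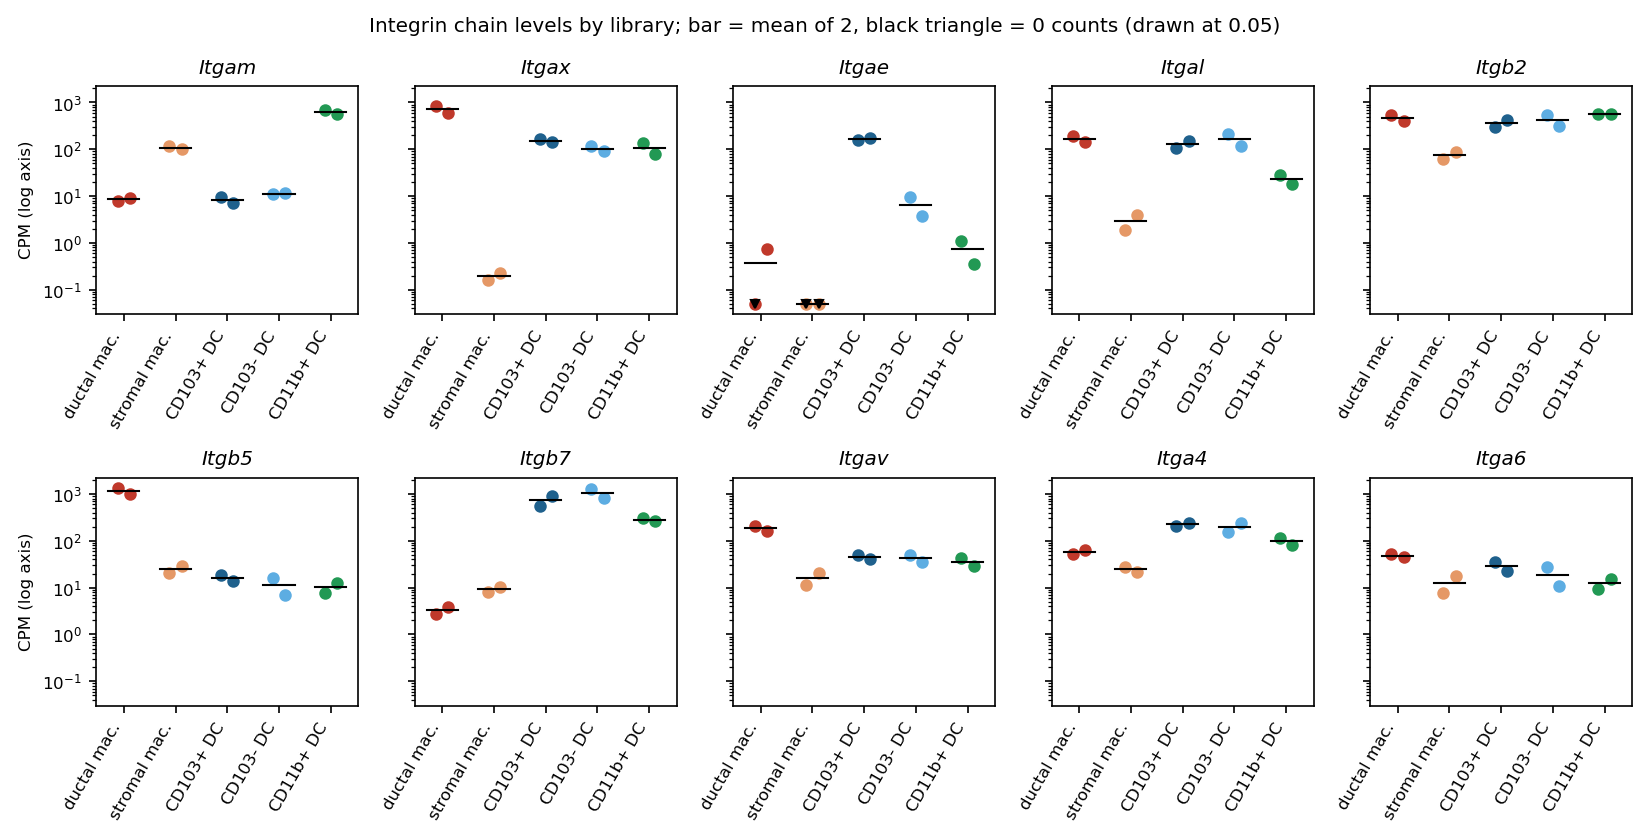
Levels of the 10 integrin chain genes in CPM (log axis) in each of the 10 libraries, with 1 panel per gene, points for libraries and bars for the mean of both replicates. Itgb5 stands at 984 to 1351 CPM in ductal macrophages and at no more than 29.5 CPM elsewhere, and Itgb7 is at no more than 10.5 CPM in both macrophage populations.

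In the beta2 family, the leading alpha chain differed between the populations. Itgam, which encodes the alpha chain of the complement receptor CD11b, was at 701 and 556 CPM in CD11b+ DC and at 117 and 102 CPM in stromal macrophages. Ductal macrophages had 7.74 and 9.27 CPM, CD103+ DC had 9.45 and 7.29 CPM and CD103- DC had 10.8 and 11.4 CPM. Both CD11b+ DC libraries thus lay far above the CD11b- libraries, as their labels say, and stromal macrophages lay between. The log2 difference was 2.52 ± 0.24 (SE, here and for later log2 differences) between CD11b+ DC and stromal macrophages, 3.29 ± 0.26 between stromal macrophages and CD103- DC, and 0.03 between ductal macrophages and CD103+ DC. Ductal macrophages carried Itgam RNA at the level of the CD11b- dendritic cells, a log2 difference of -3.68 ± 0.27 from stromal macrophages. In the GENCODE M21 annotation 3450 exon bases of Itgam are shared with Gm49368 on the same strand. In bulk RNA of sorted cells, fewer cells with a transcript and less of it per cell cannot be told apart.

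Itgax, the gene of CD11c, was at 847 and 610.2 CPM in ductal macrophages and at 0.166 and 0.231 CPM in stromal macrophages, where the libraries held 3 and 4 counts. CD103+ DC had 162 and 146 CPM, CD103- DC had 116 and 91.8 CPM and CD11b+ DC had 134 and 77.6 CPM. The ductal libraries were the highest and the stromal ones the lowest, with the dendritic cells between, where CD103- and CD11b+ DC overlapped. The ductal level exceeded that of CD103+ DC by 2.24 ± 0.31 in log2 units, and the level of CD103- DC exceeded the stromal one by 8.98 ± 0.48. Between CD11b+ and CD103- DC the difference was 0.03.

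Itgam and Itgax are neighbours on mouse chromosome 7 in the GRCm38.p6 annotation. Itgal lies at chr7:127296139-127335137, Itgam at chr7:128062640-128118491, Itgax at chr7:128129526-128150657 and Itgad at chr7:128173933-128205504, all on the + strand. Only 11034 bases separate the end of Itgam from the start of Itgax. The 250 bases before a RefSeq start site of both genes are shown because these neighbours had opposite levels in the macrophages. Those of Itgb5, which was high in ductal macrophages, are shown with them. For Itgax the start site used lies inside the gene span given above, so the window runs past chr7:128129526. The windows are chr7:128062390-128062639 for Itgam, chr7:128129300-128129549 for Itgax and chr16:33829415-33829664 for Itgb5 (RefSeq, GRCm38.p6, + strand, 5′ to 3′), and capitals mark motif matches.
Itgam: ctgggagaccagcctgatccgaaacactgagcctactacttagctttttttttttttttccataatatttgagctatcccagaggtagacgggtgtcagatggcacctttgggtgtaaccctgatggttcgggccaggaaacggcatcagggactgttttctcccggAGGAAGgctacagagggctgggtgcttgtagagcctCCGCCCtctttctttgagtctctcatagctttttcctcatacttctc
Itgax: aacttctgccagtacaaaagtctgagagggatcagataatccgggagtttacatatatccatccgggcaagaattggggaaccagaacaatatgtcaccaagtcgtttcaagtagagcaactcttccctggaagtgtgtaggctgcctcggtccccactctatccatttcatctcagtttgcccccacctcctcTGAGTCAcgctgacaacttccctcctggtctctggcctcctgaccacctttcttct
Itgb5: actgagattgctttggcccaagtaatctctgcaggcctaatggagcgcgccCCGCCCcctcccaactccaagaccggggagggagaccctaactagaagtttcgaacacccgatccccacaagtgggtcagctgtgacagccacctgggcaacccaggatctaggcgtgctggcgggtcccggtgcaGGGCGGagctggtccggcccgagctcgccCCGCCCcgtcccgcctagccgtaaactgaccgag

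Both strands were searched for 5 motifs, and matches were counted in all 32851 RefSeq mouse promoters at the same length. These were the ETS core of PU.1-type factors AGGAAG (in 29.5% of promoters), the RUNX core TGTGGT (14%), the Sp1 GC box GGGCGG (32.7%), the TATA box TATAAA (12.4%) and the AP-1 motif TGACTCA (4.46%). The Itgam window held 1 AGGAAG, starting 83 bases before the start site, and 1 GGGCGG on the reverse strand at 47 bases before it. The Itgax window held neither and had 1 TGACTCA on the reverse strand, at 56 bases before the start site used for that window. The Itgb5 window held 3 copies of GGGCGG, at 199, 63 and 34 bases before its start site. These are letter matches, and no binding was measured.

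Itgal encodes the alpha chain of LFA-1, which binds ICAM proteins on other cells. Its level was 197 and 142 CPM in ductal macrophages, 109 and 153 CPM in CD103+ DC and 208 and 117 CPM in CD103- DC. CD11b+ DC had 28.7 and 18.0 CPM and stromal macrophages had 1.93 and 3.98 CPM. The first 3 populations overlapped, and both CD11b+ DC and stromal libraries lay apart below them. CD103+ DC exceeded CD11b+ DC by 2.48 ± 0.40 (adjusted p = 0.00189), and CD11b+ DC exceeded stromal macrophages by 2.99 ± 0.44 (adjusted p = 0.000666). Between ductal and stromal macrophages the difference was 5.84 ± 0.48 (adjusted p = 1.35e-05). Ductal macrophages and CD103- DC differed by 0.06 (adjusted p = 0.933).

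Itgb2, the gene of the shared beta2 chain, varied less than its alpha partners. It was at 538 and 406 CPM in ductal macrophages, 63.5 and 86.8 CPM in stromal macrophages and 561 and 559 CPM in CD11b+ DC. CD103+ DC had 295 and 428 CPM and CD103- DC had 552 and 314 CPM. Only the stromal libraries stood apart. Every other population was above stromal macrophages, by 2.27 ± 0.34 for CD103+ DC (adjusted p = 0.00055) up to 2.90 ± 0.35 for CD11b+ DC (adjusted p = 0.000196). None of the 6 comparisons among the other 4 populations passed, with adjusted p from 0.197 between CD103+ and CD11b+ DC to 0.931 between CD103+ and CD103- DC.

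The levels of different chains were compared per kilobase of the deposited gene length. Among the RNA of the 4 alpha chains that pair with beta2, Itgax made up 84.1% and 83.7% in the ductal libraries. Itgam made up 98.2% and 96.4% in the stromal libraries and 79.4% and 83.9% in those of CD11b+ DC. The CD11b- dendritic cells were divided between Itgax and Itgal. In CD103+ DC, Itgax made up 63.5% and 53.9% and Itgal 32.9% and 43.6%, while in CD103- DC Itgax made up 40.6% and 47.6% and Itgal 56.1% and 46.8%. Itgad, the gene of a further beta2 partner and the next neighbour of Itgax, made up at most 0.524% in any library. The gates on CD11b and CD11c bear on these shares.

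The summed alpha chain RNA per length was 1.33 and 1.28 times that of Itgb2 in ductal macrophages. Stromal macrophages had ratios of 1.14 and 0.745, CD11b+ DC had 0.962 and 0.724, CD103+ DC had 0.617 and 0.450 and CD103- DC had 0.368 and 0.436. All 4 CD11b- dendritic cell libraries had ratios below those of the other 6. These ratios are descriptions over 2 libraries per population.

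**Figure D2:**
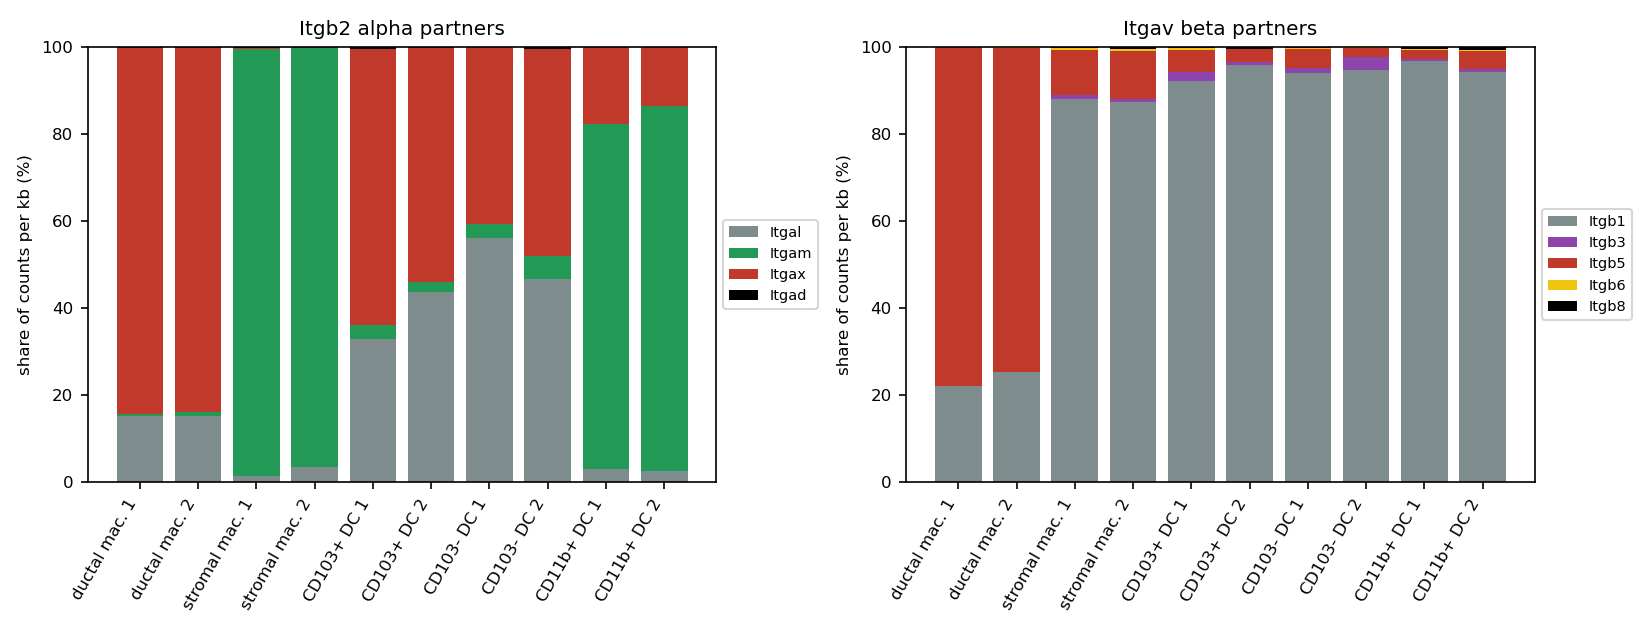
Share of each chain in percent of the counts per kilobase of its set, for each of the 10 libraries as a stacked bar. The sets are the alpha partners of beta2 (left) and the beta partners of alpha V (right). Itgax fills 83.7% to 84.1% of the beta2 set in ductal macrophages, where Itgam fills 96.4% to 98.2% in stromal macrophages.

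Of the beta7 group, Itgb7 separated the dendritic cells from the macrophages. The gene encodes the beta chain of the gut-homing integrin alpha4beta7 and of the E-cadherin receptor CD103. It was at 562 and 919.8 CPM in CD103+ DC, 1308 and 806 CPM in CD103- DC and 303 and 265 CPM in CD11b+ DC. Stromal macrophages had 7.95 and 10.5 CPM and ductal macrophages 2.73 and 3.78 CPM. Every dendritic cell library lay far above every macrophage library. CD11b+ DC exceeded stromal macrophages by 4.94 ± 0.38 (adjusted p = 1.63e-05) and ductal macrophages by 6.43 ± 0.44 (adjusted p = 4.8e-06).

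Within the dendritic cells, Itgb7 was higher in CD103- DC than in CD11b+ DC by 1.90 ± 0.33 (adjusted p = 0.003), and CD103+ and CD103- DC differed by -0.51 ± 0.32 (adjusted p = 0.880). CD103+ DC exceeded CD11b+ DC by 1.38 ± 0.33 (adjusted p = 0.0133). That call was lost without CD103+ DC replicate 2 (adjusted p = 0.0889), CD11b+ DC replicate 1 (0.0727) or CD11b+ DC replicate 2 (0.112). Between the macrophages, stromal exceeded ductal by 1.49 ± 0.41 (adjusted p = 0.0189). This call was lost without ductal replicate 1 (adjusted p = 0.146), ductal replicate 2 (0.0642) or stromal replicate 2 (0.0693), and in the fit of both macrophage populations alone (0.0738).

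Itgae, the gene of CD103, was at 158 and 172 CPM in CD103+ DC and 9.39 and 3.80 CPM in CD103- DC. CD11b+ DC had 1.10 and 0.359 CPM, ductal macrophages had 0 and 0.757 CPM (0 and 4 counts) and both stromal libraries had 0 counts. The CD103+ libraries were thus the highest, as labelled, and CD103- DC had more Itgae RNA than the remaining populations. Against a floor of 3 counts over both stromal libraries (0.0847 CPM), the mean level of Itgae was at least 1948-fold higher in CD103+ DC, at least 77.9-fold higher in CD103- DC and at least 8.62-fold higher in CD11b+ DC. These bounds cover the counting error of the stromal counts alone and not the spread between replicates. The log2 difference was 2.93 ± 0.62 between CD103- and CD11b+ DC.

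Itga4 encodes the alpha4 chain, which pairs with beta1 to bind VCAM-1 and with beta7 to bind MAdCAM-1. It stood at 204 and 243 CPM in CD103+ DC, 154 and 243 CPM in CD103- DC and 117 and 81.9 CPM in CD11b+ DC. Ductal macrophages had 53.3 and 63.2 CPM and stromal macrophages 27.0 and 22.1 CPM. All 4 libraries of CD11b- cells lay above the other 6, and both stromal libraries lay below all others. CD103+ DC exceeded ductal macrophages by 1.94 ± 0.29 (adjusted p = 0.000786) and stromal macrophages by 3.19 ± 0.31 (adjusted p = 3e-05). CD11b+ DC and ductal macrophages differed by 0.77 (adjusted p = 0.0763).

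The calls of the smaller Itga4 differences were lost in some other settings, among them libraries left out that were not part of the comparison. CD103- DC exceeded CD11b+ DC by 0.99 ± 0.28 (adjusted p = 0.034). That call was lost without ductal replicate 1 (0.0543), ductal replicate 2 (0.0539), CD103- DC replicate 2 (0.217), CD11b+ DC replicate 1 (0.0626) or CD11b+ DC replicate 2 (0.259), and in the fit of those populations alone (0.0524). CD103+ DC exceeded CD11b+ DC by 1.16 ± 0.28 (adjusted p = 0.0154), a call lost without CD103+ DC replicate 2 (0.0784) or CD11b+ DC replicate 2 (0.143). Ductal exceeded stromal macrophages by 1.25 ± 0.29 (adjusted p = 0.00833), which was lost without ductal replicate 2 (0.0584). B cell markers (6 genes, summed) were at 291 CPM in CD103- DC replicate 2 against 9.97 to 49.3 CPM in the other 9 libraries, and B cells express Itga4 and Itgb7. In that library Itga4 was the higher and Itgb7 the lower of the CD103- DC pair. The part of B cells in these levels was not tested. In the GENCODE M21 annotation, 1124 exon bases of Itga4 overlap Cerkl on the opposite strand, and the sources used here do not give whether counting used the strand. Cerkl itself was at 0 to 3.81 CPM.

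Per length, the RNA of both beta7 partners was far below that of Itgb7 in the dendritic cells. The sum of Itgae and Itga4 was 0.263 and 0.181 times the Itgb7 level in CD103+ DC, 0.0363 and 0.0846 times in CD103- DC and 0.107 and 0.0847 times in CD11b+ DC. In ductal macrophages the same ratio was 5.30 and 4.66, and in stromal macrophages it was 0.925 and 0.571. The ductal ratios divide by an Itgb7 level of only 12 and 20 counts. Their sums are nearly all Itga4, whose chain also pairs with beta1. Of the sum, Itgae made up 62.6% and 60.3% in CD103+ DC and 11.6% and 3.26% in CD103- DC. In CD11b+ DC and both macrophage populations Itga4 made up 97.5% to 100% of it.

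Itgb5 and Itgav, which encode the chains of the vitronectin receptor alphaVbeta5 that takes part in the uptake of dead cells, were both highest in ductal macrophages. Itgb5 was at 1351 and 984 CPM there. Stromal macrophages had 21.0 and 29.5 CPM, CD103+ DC had 18.3 and 13.7 CPM, CD103- DC had 16.1 and 6.97 CPM and CD11b+ DC had 7.70 and 12.6 CPM. The ductal libraries stood far above all 8 others, which overlapped in part. Ductal exceeded stromal macrophages by 5.53 ± 0.47 (adjusted p = 1.62e-05) and CD11b+ DC by 6.88 ± 0.50 (adjusted p = 8.37e-06).

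Among the other 4 populations, the Itgb5 levels of stromal macrophages and CD103+ DC differed by 0.66 (adjusted p = 0.220). Stromal macrophages exceeded CD11b+ DC by 1.35 ± 0.42 (adjusted p = 0.035), a call lost without stromal replicate 2 (0.123), CD11b+ DC replicate 1 (0.261) or CD11b+ DC replicate 2 (0.0659), with total counts as the scale (0.0690) and in the fit of those populations alone (0.0537). They exceeded CD103- DC by 1.14 ± 0.40 (adjusted p = 0.0467), a call lost in 14 of 19 other settings, among them every left-out library but CD103- DC replicate 1 (adjusted p = 0.0561 without CD11b+ DC replicate 2 to 0.266 without CD103- DC replicate 2).

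Itgav stood at 210.5 and 165 CPM in ductal macrophages and at 11.6 and 20.8 CPM in stromal macrophages. CD103+ DC had 51.0 and 41.2 CPM, CD103- DC had 50.8 and 34.9 CPM and CD11b+ DC had 42.6 and 29.4 CPM. The 3 dendritic cell populations overlapped, between the ductal libraries above and the stromal libraries below. A stretch of 634 exon bases of Itgav overlaps Gm13684 on the opposite strand. The ductal level exceeded that of CD103+ DC by 2.03 ± 0.33 (adjusted p = 0.00131) and that of stromal macrophages by 3.53 ± 0.35 (adjusted p = 4.22e-05). CD103+ DC exceeded stromal macrophages by 1.51 ± 0.33 (adjusted p = 0.00544). CD103- DC exceeded them by 1.40 ± 0.33 (adjusted p = 0.00784), lost without CD103- DC replicate 1 (0.0542) and in the fit of those populations alone (0.0519). CD11b+ DC exceeded them by 1.16 ± 0.33 (adjusted p = 0.0255), lost without stromal replicate 1 (0.103) or CD11b+ DC replicate 1 (0.202) and in the fit of those populations alone (0.0708).

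Of the RNA of the 5 beta chains that pair with alpha V, Itgb5 made up 77.8% and 74.6% per length in ductal macrophages. In stromal macrophages it made up 10.4% and 11.05%, and in the dendritic cell libraries 1.91% to 5.17%. Itgb1 made up most of the remainder, at 22.0% and 25.2% in ductal macrophages and 87.4% to 96.9% elsewhere. The beta1 chain also pairs with other alpha chains, alpha4 and alpha6 among them, so these shares do not measure pairing with alpha V. Itgb3, Itgb6 and Itgb8 together left at most a few percent in any library.

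Itga6 encodes the alpha6 chain of laminin receptors, which pairs with beta1 or beta4. It was the member with the smallest span. Ductal macrophages had 51.0 and 45.2 CPM, stromal macrophages 7.73 and 17.9 CPM and CD11b+ DC 9.56 and 15.3 CPM. CD103+ DC had 35.4 and 22.7 CPM and CD103- DC 26.9 and 10.8 CPM. The ductal libraries were above all others. CD103- DC overlapped CD103+ DC, stromal macrophages and CD11b+ DC, while CD103+ DC lay above stromal macrophages and CD11b+ DC.

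For Itga6, ductal macrophages exceeded stromal ones by 1.91 ± 0.50 (adjusted p = 0.0151), a call lost without ductal replicate 1 (0.0770) or stromal replicate 1 (0.0679). They exceeded CD11b+ DC by 1.97 ± 0.51 (adjusted p = 0.0174), a call lost without ductal replicate 1 (0.0902), ductal replicate 2 (0.0543), CD11b+ DC replicate 1 (0.146) or CD11b+ DC replicate 2 (0.0605) and with total counts as the scale (0.0547). No other Itga6 pair passed. The F test of Itga6 (adjusted p = 0.0211) was lost without ductal replicate 1 (0.0965), ductal replicate 2 (0.0689) or CD11b+ DC replicate 1 (0.0614).

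Itga6 and its partner gene Itgb4 are also expressed by endothelium and basal epithelium. Endothelial markers (6 genes, summed) were at 575 and 358 CPM in CD103+ DC and 443 and 141 CPM in CD103- DC, so that within each pair the library with more of them also had more Itga6. In ductal macrophages, where Itga6 was highest, they were at 67.2 and 180 CPM, in stromal macrophages at 36.4 and 127 CPM, and in CD11b+ DC at 66.7 and 99.5 CPM. All 6 markers were detected in every population. Itgb4, at 36.8 CPM in CD103+ DC replicate 1 and 2.51 to 20.2 CPM in the other libraries, was highest in the library with the highest basal epithelial sum (366 CPM against at most 196 CPM elsewhere). The part of these cells in either gene was not tested.

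**Figure D3:**
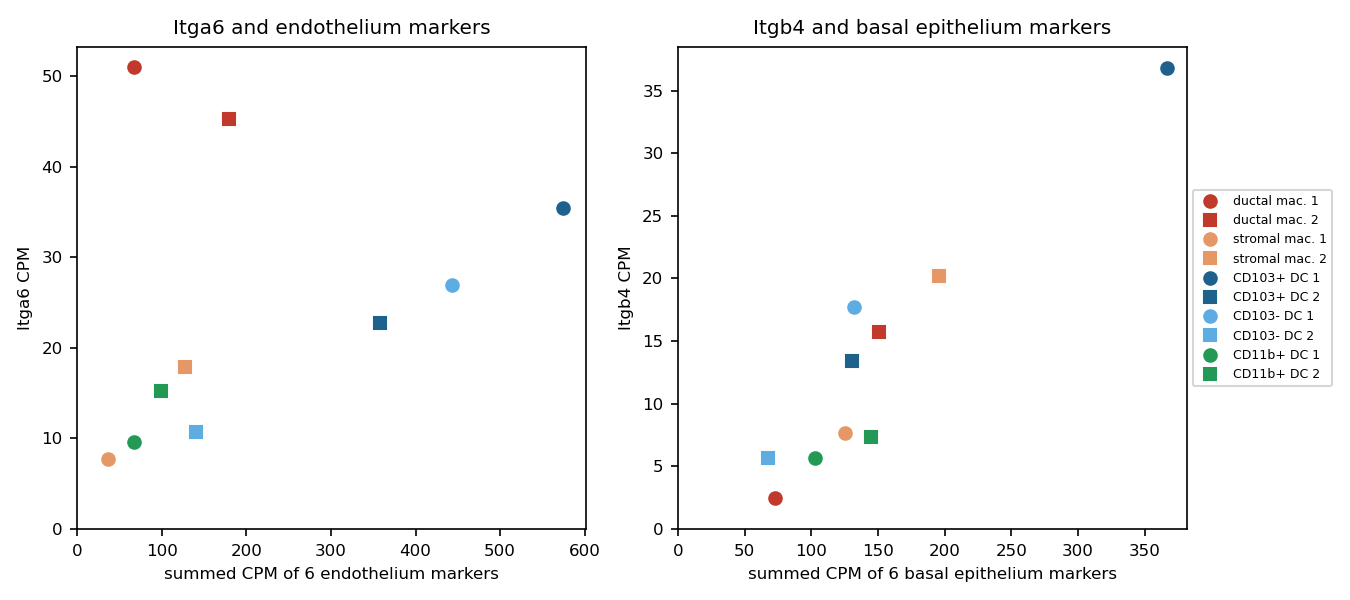
Itga6 in CPM against the summed CPM of 6 endothelial markers (left) and Itgb4 in CPM against the summed CPM of 6 basal epithelial markers (right), with 1 point per library and replicates as circles and squares. The ductal libraries have 45.2 to 51.0 CPM of Itga6 at 67.2 to 180 CPM of endothelial markers, and CD103+ DC replicate 1 is highest for both quantities on the right.

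Counted over the 10 pairs of populations, 43 of 70 differences of the 7 chains that mark no sort passed the pairwise quasi-likelihood test of edgeR (Benjamini-Hochberg adjusted). Of all genes, 0.0319% (CD103+ against CD103- DC) to 35.3% (stromal macrophages against CD103- DC) passed in a single pair. Of these 43, 11 lost their call in at least 1 of 19 other settings, each named above, and none changed direction. The pairs share libraries, so their counts are not independent.

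Between ductal and stromal macrophages, all 7 passed, 6 of them higher and 1 (Itgb7) lower in ductal cells. Of all genes 30.6% passed there, 16.3% higher and 14.3% lower. In ductal macrophages 2 chains were higher (Itgb5 and Itgav) and 2 lower (Itgb7 and Itga4) than in CD103+ DC, beside 12.5% higher and 11.4% lower of all genes (23.9% in all). The same 4 chains passed in the same directions against CD103- DC, beside 12.2% higher and 10.7% lower of all genes (22.9% in all). Against CD11b+ DC, 4 were higher (Itgal, Itgb5, Itgav and Itga6) and 1 lower (Itgb7), beside 11.9% higher and 11.4% lower of all genes (23.3% in all).

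Stromal macrophages had 5 of the 7 chains lower and 0 higher than CD103+ DC, beside 17.5% lower and 16% higher of all genes (33.6% in all). Against CD103- DC 5 were lower and 1 higher (Itgb5), beside 18.4% lower and 17% higher of all genes (35.3% in all). Against CD11b+ DC 5 were again lower and Itgb5 higher, beside 14.5% lower and 11.6% higher of all genes (26.1% in all). The 5 lower chains were Itgal, Itgb2, Itgb7, Itgav and Itga4 in each of these comparisons. The stromal libraries also differed from the others in mitochondrial share, as given above. In each of the 3 lists of other-cell markers that follow (6 genes per list, summed), their range overlapped that of another population. Fibroblast markers were at 1170.2 to 1598 CPM in stromal macrophages, 415 to 1213 CPM in ductal ones, 838 to 910.5 CPM in CD103+ DC, 356 to 552 CPM in CD103- DC and 289 to 520.2 CPM in CD11b+ DC. Adipocyte markers were at 433 to 647 CPM in stromal macrophages, 369 to 552 CPM in CD103+ DC, 228 to 443 CPM in CD103- DC and at most 144 CPM in the others. Of that list, Fabp4 alone was at 195 to 424 CPM in stromal macrophages, 343 to 492 CPM in CD103+ DC and 214 to 419 CPM in CD103- DC. Adipoq was at 25.9 to 26.3 CPM in stromal macrophages and at most 2.30 CPM elsewhere. Luminal epithelial markers were at 851 to 2053 CPM in stromal macrophages, at most 369 CPM in ductal ones and 389 to 1366 CPM in the dendritic cells. All markers of the 3 lists were detected in stromal macrophages, and the part of these cells and of the mitochondrial share in the lower chains was not tested.

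Within the dendritic cells, 3 chains (Itgal, Itgb7 and Itga4) were higher in CD103+ DC than in CD11b+ DC and 0 lower, beside 9.54% higher and 11.2% lower of all genes (20.8% in all). The same 3 were higher in CD103- DC than in CD11b+ DC and 0 lower, beside 7.93% higher and 9.62% lower of all genes (17.5% in all). Between CD103+ and CD103- DC, 0 of the 7 passed. In that comparison 0.0319% of all genes did by edgeR (5 genes), while 1000 genes had an unadjusted p under 0.05 and DESeq2 called 150 genes. With total counts in place of TMM, the median of all genes shifted by up to -0.62 (ductal macrophages minus CD103+ DC). The share of calls that were higher in ductal macrophages then fell from 52.4% to 20.0% against CD103+ DC, from 53.3% to 21.7% against CD103- DC and from 51.0% to 36.0% against CD11b+ DC. For stromal macrophages it fell from 47.8% to 23.8% and from 48.0% to 24.8% against CD103+ and CD103- DC. The share higher than in CD11b+ DC rose from 45.9% to 71.4% for CD103+ DC and from 45.2% to 71.6% for CD103- DC.

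**Figure D4:**
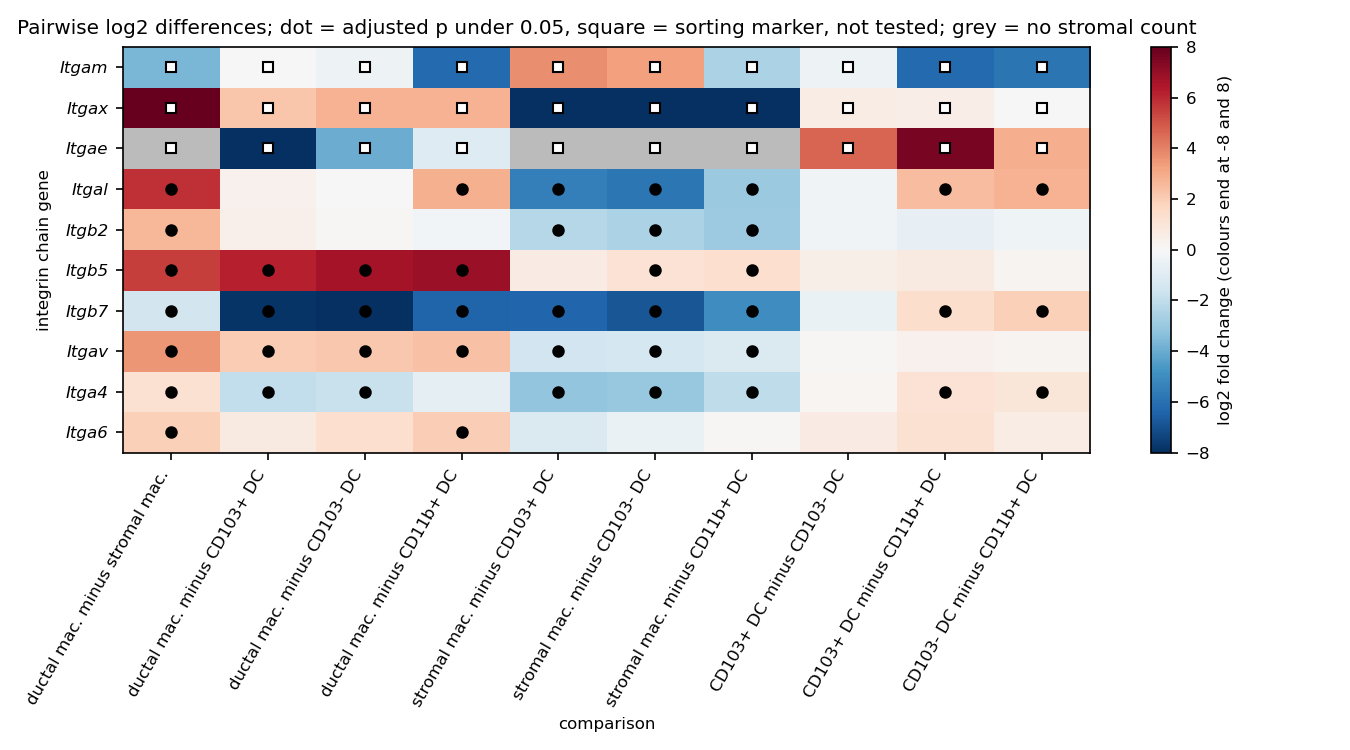
Fitted log2 differences of the 10 chain genes (rows) in the 10 pairs of populations (columns), red where the first population is higher and blue where it is lower, with colours ending at -8 and 8. Dots mark differences called by edgeR, squares the sorting markers, which are given no test, and grey cells those of Itgae against stromal macrophages, which have no count. Between CD103+ and CD103- DC there is no dot.

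Of the remaining 16 integrin chain genes, 8 passed the F test, a share close to the 50.4% of all genes. The fibronectin receptor gene Itga5 and Itga9 were highest in ductal macrophages. Itga9, whose alpha chain binds osteopontin and VCAM-1, was at 271 and 239 CPM in ductal macrophages, 14.2 and 18.6 CPM in stromal ones, and at no more than 8.30 CPM in any dendritic cell library. Ductal exceeded stromal macrophages by 3.95 ± 0.43 (adjusted p = 7.6e-05) in Itga9 and by 3.76 ± 0.41 (adjusted p = 7.25e-05) in Itga5. Itga5 was at 327 and 349.7 CPM in ductal macrophages, 32.1 and 17.8 CPM in stromal macrophages and 58.3 to 161 CPM in the dendritic cells.

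The collagen receptor gene Itga1 and the laminin receptor gene Itga3 were highest in the CD11b- dendritic cells. Itga3 was at 111 and 104 CPM in CD103+ DC and 79.6 and 51.2 CPM in CD103- DC, and at 2.05 to 9.87 CPM in the other 6 libraries. CD103+ DC exceeded CD11b+ DC by 3.68 ± 0.47 in Itga3 (adjusted p = 0.000447). Itga1 was at 42.5 and 45.8 CPM in CD103+ DC, 48.3 and 25.2 CPM in CD103- DC and 1.60 to 5.30 CPM elsewhere. CD103+ DC exceeded CD11b+ DC by 3.38 ± 0.40 in Itga1 (adjusted p = 0.000253). Neither gene differed detectably between CD103+ and CD103- DC (adjusted p = 0.935 for Itga1 and 0.873 for Itga3). Endothelial markers were at 358 to 575 CPM in CD103+ DC and 141 to 443 CPM in CD103- DC, against at most 180 CPM elsewhere. In CD103- DC the library with more of them had more of both genes. In CD103+ DC it had more Itga3 and less Itga1. The part of endothelial cells in Itga1 or Itga3 was not tested.

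Itgb1, the gene of the most widely shared beta chain, was at 227 to 569 CPM in all 10 libraries and did not pass the F test (adjusted p = 0.0911). Itga2b, a platelet and mast cell integrin chain gene, was at 14.7 and 8.66 CPM in stromal macrophages and 0.228 to 4.09 CPM elsewhere. Mast cell markers were at 165 and 58.2 CPM in the same stromal libraries against at most 10.6 CPM elsewhere. Platelet markers there summed to 939 and 809 CPM, nearly all of it Pf4, with Gp9 and Gp5 at 0. The part of these cells in Itga2b was not tested.

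**Figure D5:**
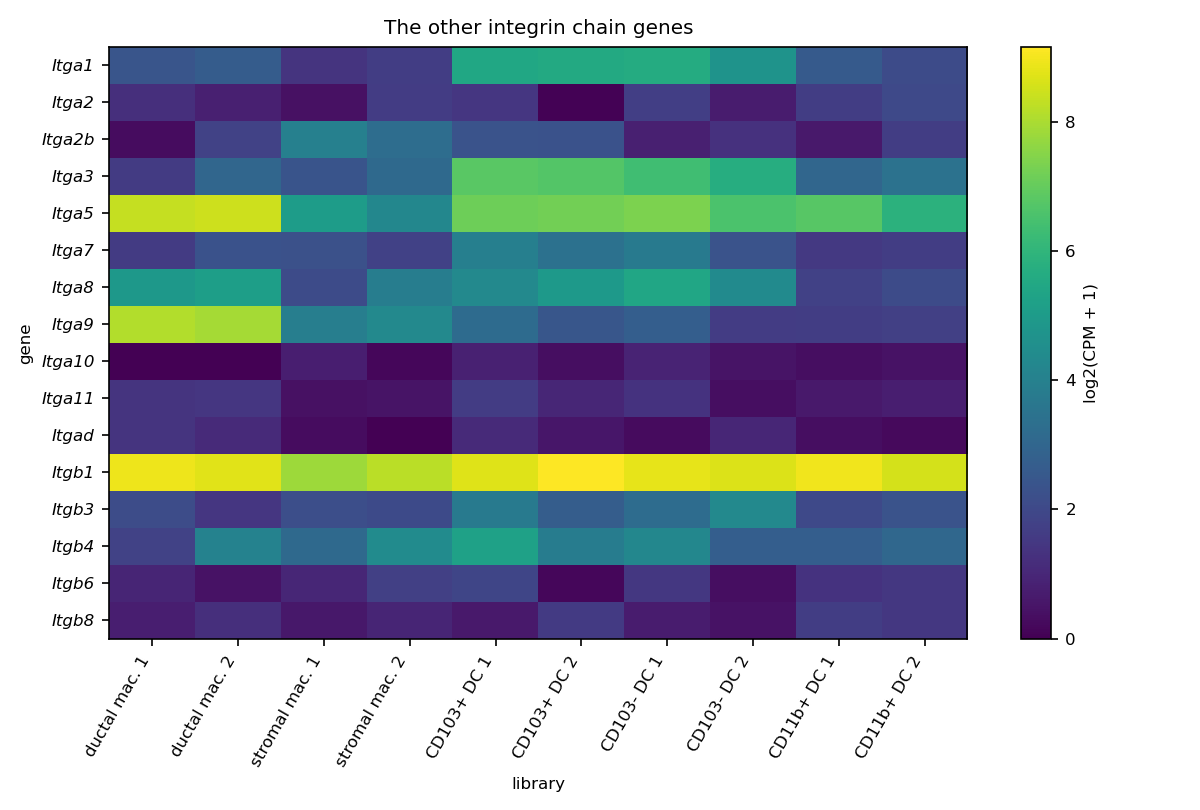
Levels of the 16 other integrin chain genes as log2(CPM + 1), genes in rows and the 10 libraries in columns. Itgb1 is high in every library, Itga9 and Itga5 are highest in ductal macrophages, and Itga1 and Itga3 are highest in the CD11b- dendritic cells.

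Genes that turn integrins on from inside the cell passed the F test in 13 of 15 cases, beside 50.4% of all genes. Between ductal and stromal macrophages 5 were higher, 3 lower and 7 did not pass, beside 16.3% higher and 14.3% lower of all genes, with a median log2 difference of 0.18 against -0.10 for all genes. Tln1, the gene of talin, which binds beta chain tails, was at 710.5 and 558 CPM in ductal macrophages, 87.2 and 115 CPM in stromal macrophages and 385 to 697 CPM in the dendritic cells. The talin gene was higher in ductal than stromal macrophages by 2.65 ± 0.32 (adjusted p = 0.00015). Fyb, which encodes the adaptor ADAP, was at 329 and 331 CPM in ductal macrophages, 200.1 and 155 CPM in stromal macrophages, and 19.6 to 55.8 CPM in the dendritic cells. Ductal macrophages exceeded CD103+ DC by 3.44 ± 0.24 in Fyb (adjusted p = 6.97e-06). Rasgrp2, an exchange factor gene for the small GTPase Rap1, was lower in ductal than in stromal macrophages by 3.69 ± 0.51 (adjusted p = 0.000333), with 0.911 and 2.27 CPM against 19.0 and 23.0 CPM.

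Of the 20 genes that signal downstream of integrins or link them to actin, 16 passed the F test, against the same 50.4%. Between ductal and stromal macrophages 8 were higher, 4 lower and 8 did not pass (median 0.46 against -0.10 for all genes, of which 16.3% were higher and 14.3% lower). Parvg, the gene of the leukocyte form of parvin, an actin linker at adhesion sites, was at 204 and 175 CPM in ductal macrophages, 93.0 and 128 CPM in CD103+ DC and 159 and 118 CPM in CD103- DC. It was at 1.82 and 0.0577 CPM in stromal macrophages and 1.65 and 0.898 CPM in CD11b+ DC. Parvg was thus low in both populations with high Itgam. Parvg was higher in ductal than stromal macrophages by 7.63 ± 0.75 (adjusted p = 3.67e-05), and CD103+ DC exceeded CD11b+ DC by 6.31 ± 0.74 (adjusted p = 0.000241). The kinase gene Ptk2b was highest in ductal macrophages. It was at 289.5 and 307 CPM there, 20.1 and 15.1 CPM in stromal macrophages and 57.8 to 91.7 CPM in the dendritic cells, and the log2 difference between the macrophages was 4.08 ± 0.25 (adjusted p = 3.08e-06). The kinase gene Fgr was at 109 CPM in both CD11b+ DC libraries, 62.2 and 52.4 CPM in ductal macrophages and 3.48 and 8.72 CPM in stromal ones. CD11b+ DC exceeded stromal macrophages by 4.16 ± 0.41 (adjusted p = 6.25e-05).

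Among 15 ligand genes, 10 passed the F test (50.4% of all genes did), and 4 were higher, 2 lower and 9 not called between ductal and stromal macrophages (16.3% of all genes higher and 14.3% lower). Their median was 0.18 against -0.10 for all genes. Vcam1, whose product is bound by alpha4 and alpha9 integrins, was at 3250.1 and 3439 CPM in ductal macrophages and 12.2 to 35.3 CPM elsewhere, a log2 difference of 7.60 ± 0.39 from stromal macrophages (adjusted p = 1.39e-06). Fn1, the fibronectin gene, was at 2305 and 2008 CPM in CD11b+ DC and 10.6 to 67.4 CPM elsewhere, and CD11b+ DC exceeded stromal macrophages by 5.45 ± 0.63 (adjusted p = 0.000162). Spp1, the osteopontin gene, was at 141 and 169 CPM in CD103- DC, 74.4 and 107 CPM in CD103+ DC and 51.4 and 33.9 CPM in CD11b+ DC. In the macrophages it was at 2.94 to 7.06 CPM.

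Of the genes of 9 membrane proteins that associate with integrins, 8 passed the F test, beside 50.4% of all genes. Between ductal and stromal macrophages 6 were higher (16.3% of all genes), 0 lower (14.3%) and 3 did not pass, with a median of 1.81 against -0.10 for all genes. The urokinase receptor gene Plaur was at 1772 and 1693 CPM in ductal macrophages and 2163 and 2334 CPM in CD11b+ DC, against 67.6 to 183 CPM elsewhere. Between ductal and stromal macrophages Plaur differed by 4.63 ± 0.27 (adjusted p = 2.99e-06). The tetraspanin gene Cd63 was at 1143 and 1233 CPM in ductal macrophages and 245 and 247 CPM in stromal ones (2.27 ± 0.28, adjusted p = 0.00015). Cd82, another tetraspanin gene, was higher in ductal than in stromal macrophages by 2.73 ± 0.31 (adjusted p = 8.82e-05), with 329 and 401 CPM against 43.6 and 66.4 CPM. The tetraspanin gene Cd9 was lower in ductal macrophages than in CD103+ DC by 2.51 ± 0.43 (adjusted p = 0.00186), with 68.6 and 97.0 CPM against 414 and 532 CPM.

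In the other comparisons, 5 of the 16 further chains were higher and 0 lower in CD103+ DC than in CD11b+ DC (median 1.44 against 0.09 for all genes, of which 9.54% were higher and 11.2% lower). The same numbers were higher and lower in CD103- DC than in CD11b+ DC (0.81 against 0.05, with 7.93% of all genes higher and 9.62% lower). Of the 20 signalling genes, 3 were higher, 10 lower and 7 not called in stromal macrophages against CD103+ DC (median -0.83 against 0.02, with 16% of all genes higher and 17.5% lower). Against CD103- DC 2 were higher, 8 lower and 10 not called (-0.80 against 0.02, with 17% of all genes higher and 18.4% lower), and against CD11b+ DC 3 were higher, 9 lower and 8 not called (-0.70 against 0.03, with 11.6% of all genes higher and 14.5% lower). Of the 15 ligand genes, 0 were called higher in stromal macrophages than in any dendritic cell population. Lower were 6 against CD103+ DC, where 17.5% of all genes were lower (median -0.36 against 0.02), 3 against CD103- DC, where 18.4% were (0.13 against 0.02), and 5 against CD11b+ DC, where 14.5% were (0.24 against 0.03). The last 2 of these medians lay above 0, on the other side from the calls. Of the membrane proteins, ductal macrophages had 5 higher and 1 lower than CD103- DC (median 1.29 against -0.11, with 12.2% of all genes higher and 10.7% lower). Between CD103+ and CD103- DC, 0 genes of these 5 lists passed.

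Genes with the profile most like each member were taken by the root mean square difference of centred log2 CPM over the 10 libraries, for the 8 members whose population means spanned at least 3 log2 units. Capg, the gene of an actin filament capping protein, lay nearest to Itgam (0.30), with mean levels of 1174 CPM in CD11b+ DC and 289 CPM in stromal macrophages and 22.5 to 26.8 CPM elsewhere. Adgrg5, an adhesion G protein-coupled receptor gene, lay nearest to Itgax (0.35), with 168 CPM in ductal macrophages and 0 CPM in stromal ones. Tmem119, known as a microglia marker gene, lay nearest to Itgb5 (0.44), with 317 CPM in ductal macrophages and 2.82 to 5.29 CPM elsewhere.

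Apol7c was nearest to Itgae (1.11), with 88.5 CPM in CD103+ DC and 8.49 CPM in CD103- DC. Rapgef2, an exchange factor gene for Rap1, was nearest to Itgav (0.24). Gm5424 was nearest to Itgal (0.36), before Mpeg1 (0.58), the macrophage gene of perforin-2. The uncharacterised 4931431C16Rik (0.34) and Tap1 (0.35), a gene of peptide loading onto MHC class I, were nearest to Itga4. These genes were ranked by likeness over the same libraries, so the likeness is a description.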

How the data were processed

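RNA of 5 sorted populations was sequenced as paired reads of 80 bases, per the labels. The deposited values are raw counts per gene made by the authors with featureCounts on mm10, per the submitters' processing notes. The sources used here do not give versions, the aligner, the annotation or whether counting used the strand. Each library's own table held the same counts as the table of the series. Gene length in bases is the deposited Length column. Of 27179 Entrez gene IDs, 25275 were named from RefSeq and 18 from GENCODE, and 1886 had no name (0.386% to 2.32% of counts) and were kept.

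Counts were tested in R 4.3.3 with edgeR 4.0.16 (filterByExpr by population with minimum count 10 and minimum total 15, TMM, quasi-likelihood fit of all 10 libraries with 5 residual degrees of freedom), which left 15681 genes. All populations shared 1 fit because each has 2 replicates. Differences were called at a Benjamini-Hochberg adjusted p under 0.05 over all genes. Standard errors are the absolute log2 difference over the square root of F. P-values measure the spread between the biological replicates. The scripts were tested on simulated data. CD11b, CD11c and CD103 mark the sorts, so Itgam, Itgax and Itgae are given no test. Shares and ratios of chains used counts per kilobase. Exon overlaps were read from GENCODE M21. Promoters were matched by symbol to RefSeq (6 of 10 members).

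Named were all integrin chains, up to 5 genes per pathway list with the largest span among those passing the F test with a population mean of at least 10 CPM, and genes from the 3 most like each member, some of which are not reported here. Members and lists were chosen with earlier results of these data known. Other settings were 3 scalings, 2 filters, mitochondrial genes removed, DESeq2 1.42.0, a replicate block, a fit of the compared populations alone, and each library left out.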

Additional observations from a re-analysis of the deposited data

How the results depend on the processing

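With 2 libraries per population, leaving 1 out leaves its population with a lone sample that is assumed to vary like the others. Left-out libraries gave 6037 to 8210 genes called by the F test, and 2536 to 4742 for ductal minus stromal macrophages. Ductal macrophages minus CD103+ DC gave 1714 to 4444, minus CD103- DC 1914 to 4227 and minus CD11b+ DC 1740 to 4173, each lowest without ductal replicate 1. Stromal macrophages minus CD103+ DC gave 3244 to 5300, minus CD103- DC 3882 to 5286 and minus CD11b+ DC 2054 to 4007. CD103+ minus CD103- DC gave 2 to 18, CD103+ minus CD11b+ DC 1423 to 3939 and CD103- minus CD11b+ DC 1222 to 3370. Of the 7 chains that mark no sort, 6 to 7 were called by the F test, and in the same order of pairs 5 to 7, 4, 4 to 5, 4 to 5, 5 to 6, 5, 4 to 6, 0, 1 to 4 and 2 to 3. The fit of stromal macrophages and CD103- DC alone called 3430 genes against 5542. Between CD103+ and CD103- DC, no filter gave 150 genes and DESeq2 gave 150, against 5.

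Same-numbered libraries correlated at -0.176 to 0.177 in their deviations over 10 pairs of populations, 4 of them over 0.1. The correlations were positive among ductal macrophages, stromal macrophages and CD11b+ DC (0.102 to 0.126) and between CD103+ and CD103- DC (0.177). They were negative for every other pair. Whether replicate numbers mark a batch shared by some populations was not tested. With the replicate block, CD103+ minus CD103- DC gave 3 genes and 0 of these 7 chains, and Itga4 in CD103- minus CD11b+ DC had an adjusted p of 0.0569.

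Without gene length, the ductal shares became 18.7% for Itgal, 80.2% for Itgax, 28.2% for Itgb1 and 71.5% for Itgb5. The stromal shares became 89.5% for Itgb1 and 8.57% for Itgb5. Itgal became 3.04% in CD11b+ DC, Itgax 38.0% in CD103- DC and Itgae 42.5% in CD103+ DC. These shares moved by more than the standard deviation of their 2 replicates. Shares that moved by less than it included Itgax (mean 58.7% to 52.5%) and Itgal (38.2% to 44.3%) in CD103+ DC. Itgal in CD103- DC (51.4% to 57.5%) did as well. In CD103+ DC replicate 2, Itgal (49.9%) then lay above Itgax (47.6%). Of 817 values of the 43 called differences of the 7 chains under other settings, 769 kept their call, 48 lost it and 0 reversed.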
